A study of Homo sapiens with 6 samples.

Results

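The response of the NRF2 pathway to decitabine (DAC), a cytidine analog that blocks DNA methyltransferases, was examined in 2 breast cell lines through NFE2L2, the gene of the transcription factor NRF2, and 9 genes known as its targets. The 10 genes (NFE2L2, HMOX1, NQO1, GCLC, GCLM, SRXN1, TXNRD1, SLC7A11, AKR1C1 and AKR1B10) were taken by symbol out of 23617 symbols in the MDA-MB-231 table and 1854 in the HMLER table. MDA-MB-231 is a widely used model of breast cancer without hormone receptors. HMLER are mammary epithelial cells that were made tumorigenic in the laboratory by introduced genes. RNA was sequenced from 1 untreated and 1 DAC-treated library of MDA-MB-231 and from 2 untreated and 2 DAC-treated libraries of HMLER, each a pool of separate extractions. Treated cells received 10 µM DAC every day and were collected at 72 h, whereas the labels give no agent for untreated cells. HMLER cells were grown with EGF, hydrocortisone, puromycin and insulin, which the methods do not list for MDA-MB-231 cells. The untreated MDA-MB-231 library carries another line number in 1 of its labels, and its title was used.

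NRF2 is held at a low level by KEAP1, which presents it to a CUL3 ubiquitin ligase for degradation. Oxidants and electrophiles modify KEAP1, so that NRF2 accumulates, pairs with a small MAF protein and binds antioxidant response elements in the promoters of its targets. These encode enzymes of glutathione synthesis, of the thioredoxin system, of heme and quinone metabolism and of NADPH supply. NRF2 is controlled mainly at the level of the protein, so its mRNA and its activity need not move together. Because DAC removes methylation from CpG dinucleotides, the CpG content of a promoter is given here beside the motif that NRF2 binds.

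The core of the antioxidant response element, TGACNNNGC on either strand, was searched in RefSeq promoters, 250 bases before to 50 bases after the start. A promoter was found for 7 of the 10 genes, 9 promoters in all, and each matched GRCh37 (hg19) exactly once. HMOX1, SLC7A11 and AKR1B10 were not among them. 3 promoters, of GCLM and TXNRD1, held the core, against 13.3% of all 35116 promoters. They are printed 5′ to 3′ on the strand of the gene with the core in capitals, to show how the same letters sit in both genes, which code for a subunit of glutathione synthesis and for the reductase of thioredoxin.
GCLM, hg19 chr1:94374937-94375236, minus strand: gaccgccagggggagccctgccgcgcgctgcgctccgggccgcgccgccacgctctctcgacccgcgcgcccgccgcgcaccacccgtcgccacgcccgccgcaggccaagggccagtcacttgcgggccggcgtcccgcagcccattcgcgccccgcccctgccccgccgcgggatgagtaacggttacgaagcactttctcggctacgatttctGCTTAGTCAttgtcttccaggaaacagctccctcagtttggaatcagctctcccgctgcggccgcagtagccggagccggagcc
TXNRD1, first start, hg19 chr12:104609307-104609606, plus strand: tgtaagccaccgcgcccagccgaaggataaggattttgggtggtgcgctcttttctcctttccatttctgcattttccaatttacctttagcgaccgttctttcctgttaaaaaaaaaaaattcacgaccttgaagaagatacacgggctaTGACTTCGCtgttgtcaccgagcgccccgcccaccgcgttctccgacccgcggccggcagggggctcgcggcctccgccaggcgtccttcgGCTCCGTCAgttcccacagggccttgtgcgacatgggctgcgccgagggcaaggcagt
TXNRD1, second start, hg19 chr12:104680560-104680859, plus strand: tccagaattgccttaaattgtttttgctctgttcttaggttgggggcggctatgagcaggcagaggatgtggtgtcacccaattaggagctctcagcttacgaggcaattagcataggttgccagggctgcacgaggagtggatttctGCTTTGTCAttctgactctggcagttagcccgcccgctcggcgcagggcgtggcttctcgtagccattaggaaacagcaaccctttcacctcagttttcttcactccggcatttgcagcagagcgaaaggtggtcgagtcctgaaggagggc

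In GCLM the core read TGACTAAGC on the opposite strand, from 34 to 26 bases before the start. The first TXNRD1 promoter held TGACTTCGC from 99 to 91 bases before the start, and TGACGGAGC on the opposite strand across the start itself. In the second TXNRD1 promoter TGACAAAGC lay on the opposite strand, from 102 to 94 bases before the start. None of the 9 promoters held the AP-1 site TGACTCA, which 4.95% of all promoters held. None held the related TGANTCAGC or its narrower form TGACTCAGC either, held by 1.36% and 0.561%. These forms overlap, as TGACTCAGC contains both the core and the AP-1 site. A match is a description of letters in this window and no measure of binding. Elements further from the start were not searched.

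The same promoters ranged widely in CpG content, here the number of CG dinucleotides observed over that expected from the base composition. The median of all promoters was 0.579. GCLC, with 1.13, and AKR1C1, with 0.240, had the highest and the lowest ratio of the 9, and are printed with every CG in capitals.
GCLC, hg19 chr6:53409850-53410149, minus strand: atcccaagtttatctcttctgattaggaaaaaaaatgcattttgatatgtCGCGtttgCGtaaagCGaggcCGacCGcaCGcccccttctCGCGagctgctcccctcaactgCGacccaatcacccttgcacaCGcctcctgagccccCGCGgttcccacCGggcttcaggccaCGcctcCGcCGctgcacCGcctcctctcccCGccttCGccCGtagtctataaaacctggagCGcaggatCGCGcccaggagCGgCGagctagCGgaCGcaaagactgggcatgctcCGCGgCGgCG
AKR1C1, hg19 chr10:5005357-5005656, plus strand: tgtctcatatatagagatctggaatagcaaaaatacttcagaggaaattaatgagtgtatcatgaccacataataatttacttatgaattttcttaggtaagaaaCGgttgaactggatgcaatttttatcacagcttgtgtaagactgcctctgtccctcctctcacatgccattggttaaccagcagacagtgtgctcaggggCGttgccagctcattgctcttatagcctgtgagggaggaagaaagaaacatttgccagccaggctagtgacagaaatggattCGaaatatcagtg

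The GCLC promoter had 32 CG dinucleotides and the AKR1C1 promoter 3. Ratios were 1.10 for GCLM, 1.08 and 0.562 for the first and second starts of TXNRD1, 0.986 for SRXN1, 0.922 and 0.832 for the NFE2L2 starts, and 0.506 for NQO1. Methylation of these promoters was not analysed here.

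Values are FPKM, fragments per length of transcript and number of mapped fragments, and the transcripts of a symbol were summed unless a transcript is named. A gene was counted as higher or lower when the DAC/untreated ratio was above 2 or under 0.5 and at least 1 library reached 1 FPKM. As there was 1 MDA-MB-231 library per condition, no difference could be checked on replicates and no p-value is given. Errors of a different kind are given instead. The lower and upper bounds that Cuffdiff sets on each transcript cover counting, assignment to transcripts and its model of dispersion, and the interval of a ratio (95%, exact binomial) covers counting error only. What 1 read is worth was recovered from low values and implied a similar depth in both libraries, as 1 read per effective kilobase was 0.0235 FPKM in the untreated and 0.0236 FPKM in the DAC-treated one. The median ratio over the 11292 symbols expressed at this level without and with DAC was 0.912 (log2, -0.13). Markers of MDA-MB-231 were only partly as planned. VIM was at 3066 and 1134 FPKM, AXL at 400.3 and 126.7 FPKM and CD44 at 212.3 and 138.7 FPKM in the untreated and treated library. Of those planned as low, ESR1 was at 0 and 0.0193 FPKM, PGR at 0 and 0.0555 FPKM and CDH1 at 0 and 0.179 FPKM. However, ERBB2 was at 11.8 and 12.7 FPKM and EPCAM at 7.90 and 9.78 FPKM. Among epithelial keratins, KRT19 was at 0.518 and 13.5 FPKM, KRT8 at 154.4 and 141.0 FPKM and KRT18 at 173.5 and 164.1 FPKM. PTPRC, a marker of blood cells, was at 0.0247 and 0.119 FPKM. Of the 8 markers of blood, endothelium and fibroblasts, CD68 was at 137.1 and 161.9 FPKM and COL1A1 at 0.853 and 15.6 FPKM, and the others were under 0.4 FPKM in both libraries. Their part in the results was not tested. The HMLER table lists only transcripts that were higher after DAC, so the markers of that line could not be checked.

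None of the 10 genes was more than 2-fold higher or lower after DAC in MDA-MB-231, and none was listed in HMLER. Of the 10, 8 passed the filter of 1 FPKM, and AKR1C1 and AKR1B10 did not. Past the same filter, 10.8% of 12525 symbols were higher by this measure and 4.82% were lower. The 8 genes also reached 10 FPKM, a level chosen after the values were seen, in at least 1 library, and for the 7403 symbols that did, the shares were smaller, 3.78% and 4.94%. With these shares, a count of 0 among 8 genes is near the background. At a threshold of 1.5-fold, 1 of the 8 was higher (GCLC) and 1 was lower (SLC7A11), where 17% and 15.5% of all symbols were. Of the 8 genes, 6 had a ratio under 1, against 56.9% of all symbols past the filter of 1 FPKM. That share was not computed at 10 FPKM or more, where the median ratio was 0.872, against 0.933 past 1 FPKM. The median log2 change of the 8 genes, with 1 FPKM added to each value, was -0.30. It was -0.08 over all symbols and -0.19 over the symbols at 10 FPKM or more. Summed, the 8 genes gave 614.0 FPKM in the untreated and 488.5 FPKM in the treated library, a ratio of 0.796, and all symbols past the filter gave a ratio of 0.814.

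**Figure D1:**
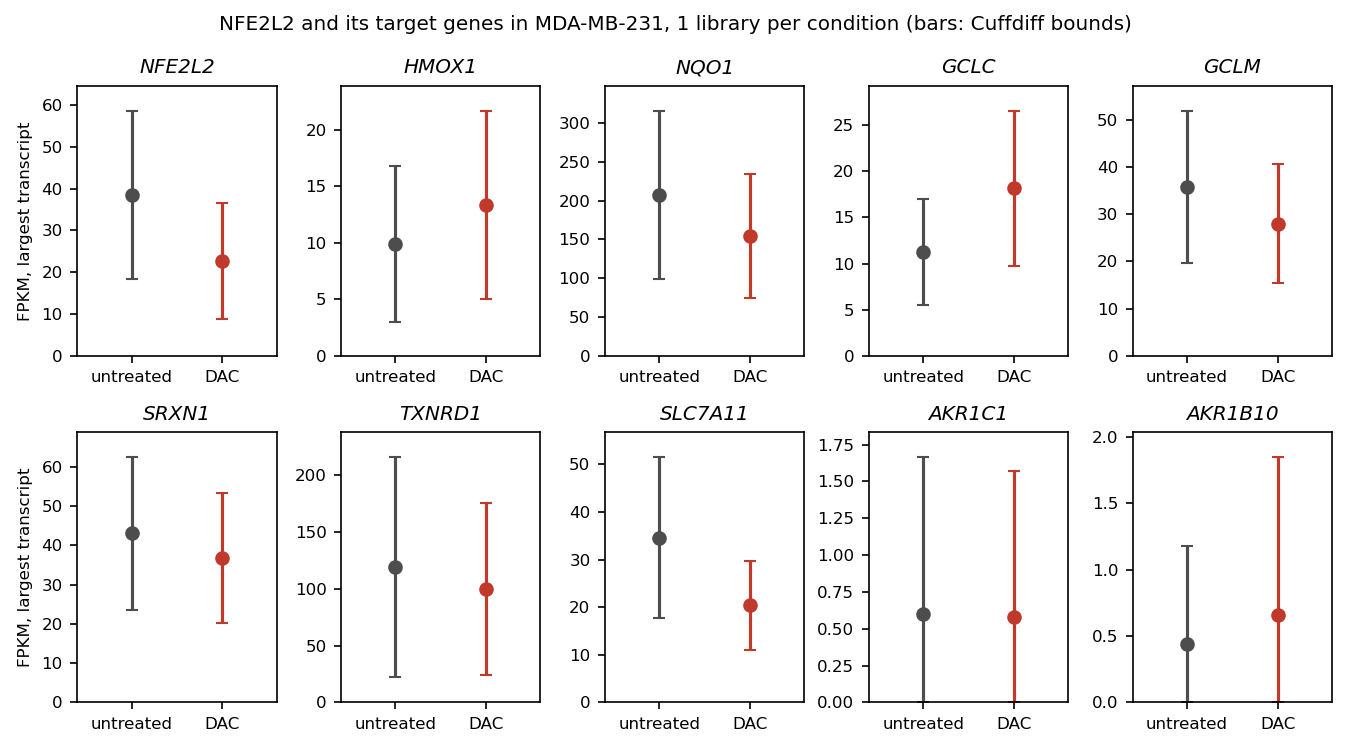
FPKM of the largest transcript of each gene (vertical axes, each from 0) in the untreated (grey) and DAC-treated (red) MDA-MB-231 library; bars are Cuffdiff's lower and upper bounds. Bars of the libraries overlap for all 10 genes, and on this transcript the ratios run from 0.588 (NFE2L2) and 0.590 (SLC7A11) to 1.51 (AKR1B10) and 1.61 (GCLC).

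For the largest transcript of each gene, Cuffdiff's bounds overlapped between the libraries in 10 of 10 genes. They did not overlap for 1.44% of the 12396 symbols whose largest transcript reached 1 FPKM, so that overlap is the usual outcome at this design. The counting intervals were narrower. They lay above 1 for GCLC and HMOX1, below 1 for the other 6 genes past the filter, and included 1 for AKR1C1 and AKR1B10.

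NFE2L2 itself (hg19, chromosome 2, 178095031 to 178129859, minus strand) was 51.9 FPKM in the untreated and 42.4 FPKM in the treated library, a ratio of 0.817 (counting interval 0.778 to 0.840). Its transcripts went opposite ways. The longest, NM_006164, was 38.6 FPKM (bounds 18.5 to 58.6) without and 22.7 FPKM (bounds 8.82 to 36.6) with DAC, a ratio of 0.588. NM_001145412, whose first exon differs and whose protein is shorter at the amino terminus, was 13.4 FPKM (bounds 1.29 to 25.5) without and 19.8 FPKM (bounds 6.53 to 33.0) with DAC, a ratio of 1.48. A further transcript, NM_001145413, was listed at 0 in both libraries. NM_006164 thus made up 74.2% of NFE2L2 in untreated and 53.5% in treated cells, a shift of -20.8 percentage points. A shift of 20 points or more, a size chosen after the value was seen, occurred in 6.99% of 3217 symbols at 10 FPKM or more with several transcripts above 0. The bounds of each transcript overlapped between the libraries, and how far the assignment of shared reads moves this share was not tested.

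**Figure D2:**
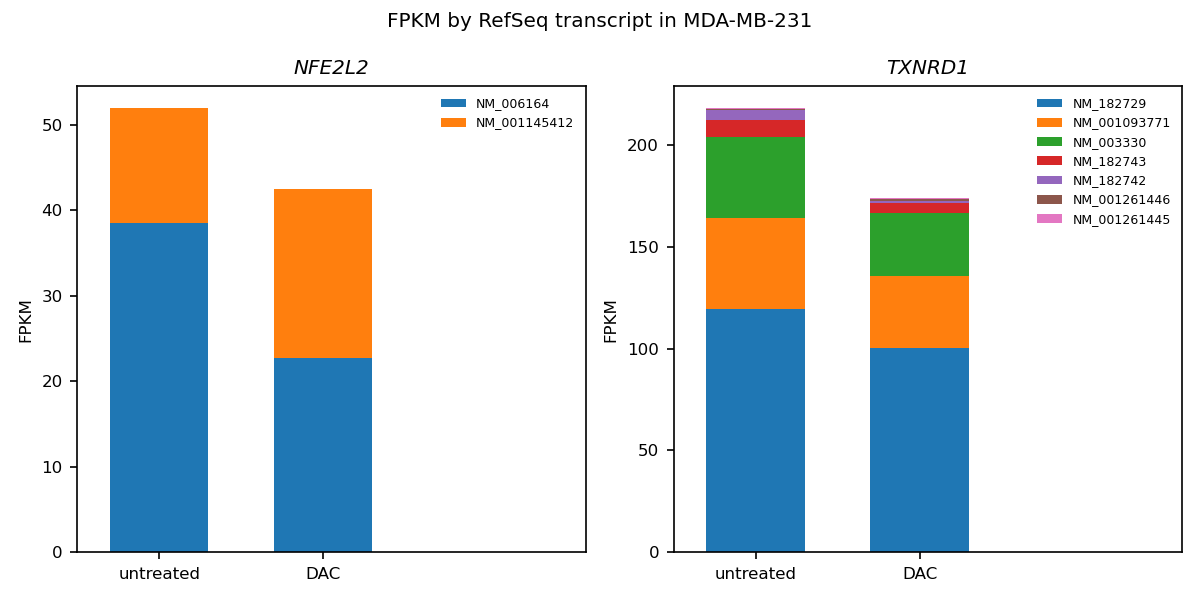
FPKM by RefSeq transcript (stacked bars from 0) of NFE2L2 and TXNRD1 in the untreated and DAC-treated MDA-MB-231 library. In NFE2L2 the share of NM_006164 is 74.2% without and 53.5% with DAC, whereas in TXNRD1 the share of NM_182729 is 54.9% and 57.6%.

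Glutathione is made in a first, rate-limiting step by glutamate-cysteine ligase, of which GCLC is the catalytic and GCLM the modifier subunit. GCLC (chromosome 6, 53362140 to 53409927, minus strand) was 11.3 FPKM (bounds 5.53 to 17.0) in the untreated and 18.2 FPKM (bounds 9.74 to 26.6) in the treated library, a ratio of 1.61 (counting interval 1.51 to 1.71). GCLM (chromosome 1, 94352590 to 94375012, minus strand) was 35.7 FPKM (bounds 19.6 to 51.9) in the untreated and 27.9 FPKM (bounds 15.3 to 40.5) in the treated library, a ratio of 0.782 (counting interval 0.746 to 0.817). The subunits of 1 enzyme thus differed in direction, and their counting intervals lay apart. The level of GCLM over that of GCLC, which no scaling of a library can move, was 3.17 in untreated and 1.54 in treated cells. All GCLC signal fell on NM_001498, and NM_001197115 was listed at 0.

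SLC7A11 (chromosome 4, 138948577 to 139163503, minus strand) codes for the light chain of the antiporter that imports cystine for glutathione. It had the lowest ratio of the 10 genes, with 34.6 FPKM (bounds 17.7 to 51.6) in the untreated and 20.4 FPKM (bounds 11.1 to 29.7) in the treated library, a ratio of 0.590 (counting interval 0.574 to 0.606). Of all symbols past the filter, 7.53% had a lower log2 change. Its partner SLC3A2, the heavy chain, which also serves other transporters, was 159.2 FPKM without and 184.3 FPKM with DAC. The level of SLC3A2 over SLC7A11 was therefore 4.60 in untreated and 9.02 in treated cells.

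Thioredoxin reductase TXNRD1 (chromosome 12, 104609557 to 104744085, plus strand), which recharges thioredoxin with NADPH, was 217.8 FPKM in the untreated and 173.8 FPKM in the treated library, a ratio of 0.798 (counting interval 0.784 to 0.809). Of its 7 transcripts, NM_182729 was the largest, with 119.5 FPKM (bounds 22.8 to 216.2) and 100.03 FPKM (bounds 24.4 to 175.7). The transcript furthest from 1 was NM_182742, at 4.86 FPKM (bounds 0 to 24.0) without and 1.11 FPKM (bounds 0 to 8.80) with DAC, a ratio of 0.228. Its lower bound was 0 in both libraries, and the bounds overlapped. SRXN1 (chromosome 20, 627268 to 634014, minus strand), sulfiredoxin, which repairs over-oxidized peroxiredoxins, was 43.1 FPKM (bounds 23.7 to 62.5) in the untreated and 36.8 FPKM (bounds 20.3 to 53.2) in the treated library. Its ratio of 0.854 (counting interval 0.816 to 0.890) was the closest to the median of all symbols among the 8 genes.

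HMOX1 (chromosome 22, 35777060 to 35790207, plus strand) codes for heme oxygenase, which opens heme into biliverdin, iron and carbon monoxide. It was 9.88 FPKM (bounds 3.03 to 16.7) in the untreated and 13.4 FPKM (bounds 5.02 to 21.7) in the treated library. The ratio was 1.35 (counting interval 1.208 to 1.501), above the ratio of 80.5% of symbols when ranked by log2 change. NQO1 (chromosome 16, 69743304 to 69760533, minus strand), a quinone reductase widely used as a readout of NRF2, was 209.7 FPKM in the untreated and 155.6 FPKM in the treated library, a ratio of 0.742 (counting interval 0.725 to 0.756). NM_000903 carried 98.9% and 99.1% of it, with bounds of 98.8 to 315.9 FPKM without and 74.5 to 233.7 FPKM with DAC. HMOX1 and NQO1, both direct targets, thus lay on opposite sides of the median of all symbols.

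The aldo-keto reductases, which reduce carbonyls including steroids and lipid aldehydes, were near the limit of detection. AKR1C1, on the plus strand of chromosome 10 from 5005454 to 5020158, measured 0.599 FPKM (bounds 0 to 1.67) in the untreated and 0.583 FPKM (bounds 0 to 1.57) in the treated library, about 30 and 29 reads. AKR1B10, on the plus strand of chromosome 7 from 134212344 to 134226166, measured 0.438 FPKM (bounds 0 to 1.18) without and 0.661 FPKM (bounds 0 to 1.85) with DAC, about 26 and 39 reads. The ratios were 0.973 (counting interval 0.562 to 1.67) and 1.51 (counting interval 0.894 to 2.58), so a change of about 1.5-fold was not detectable at this depth, and the log2 change of AKR1C1 was -0.01 but 0.04 after division by the median ratio. Reads may also be shared with paralogs. Of the 50-base windows of the AKR1C1 coding sequence, 51.6% occur unchanged in AKR1C2, 14.7% in AKR1C3 and 6.09% in AKR1C4, and of those of AKR1B10, 19.8% occur in AKR1B15 and 0% in AKR1B1. AKR1C2 was 0.163 and 0.158 FPKM, AKR1C4 0.0712 and 0.0717 FPKM, and AKR1B15 was listed at 0 in both libraries. AKR1C3 was 5.77 FPKM without and 3.56 FPKM with DAC, and AKR1B1 89.96 and 90.2 FPKM.

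By level per length, the order in untreated cells, taken on the largest transcript, was NQO1, TXNRD1, SRXN1, NFE2L2, GCLM, SLC7A11, GCLC, HMOX1, AKR1C1 and AKR1B10. Neighbours in this order did not differ beyond their bounds, except SLC7A11 from GCLC and HMOX1 from AKR1C1. In treated cells only HMOX1 and AKR1C1 among these neighbours stood apart. By summed FPKM, TXNRD1 ranked 438th and NQO1 453rd of all symbols in untreated cells.

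**Figure D3:**
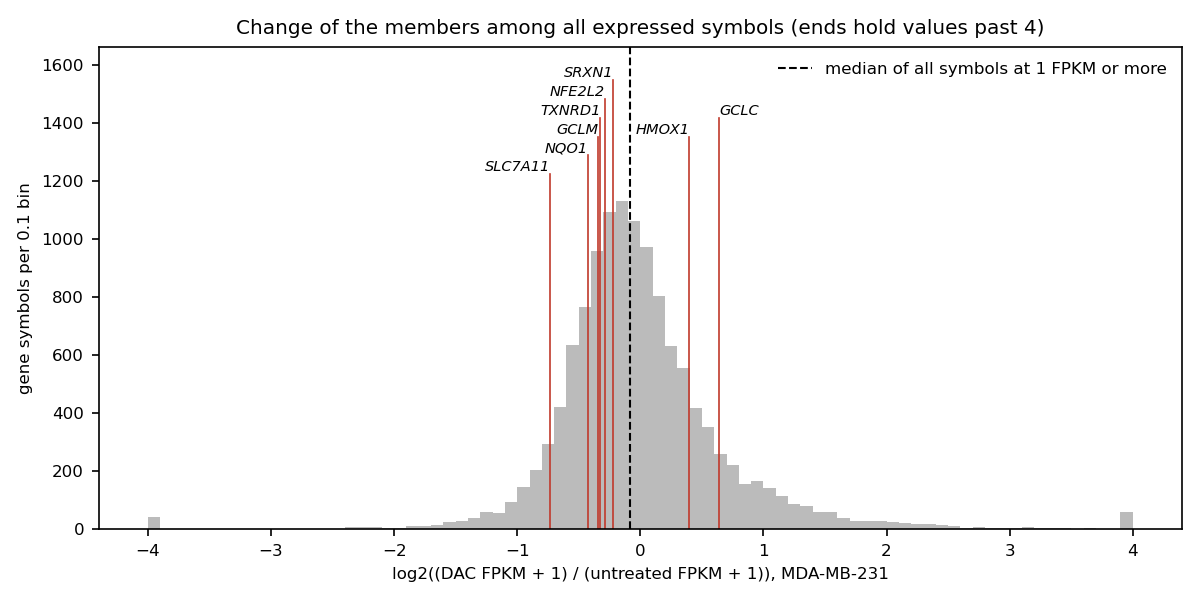
Histogram of the log2 change after DAC, with 1 FPKM added to each value, over the 12525 MDA-MB-231 symbols past the filter (bins of 0.1, end bins holding values past 4 in size). Red lines mark the 8 genes past the filter, which lie between -0.73 (SLC7A11) and 0.64 (GCLC), and the dashed line the median of -0.08.

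In HMLER the authors' table holds 2009 transcripts, each with a DAC/untreated ratio above 2 and at least 1 FPKM after DAC, and none belonged to the 10 genes. That table held 10.9% of the symbols past the filter in MDA-MB-231, and 3.66% were in it and higher in MDA-MB-231 too. The table does not tell apart genes that were lower, unchanged or not detected in HMLER, so no level of the 10 genes can be given there.

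Other genes of the pathway were described from lists of regulators, further targets and neighbouring enzymes, 140 symbols in all. Of these, 139 had values in MDA-MB-231 and 104 passed the filter there. Of the 104 genes, 9 (8.65%) were higher, 5 (4.81%) were lower, and 9 (8.65%) were in the HMLER table. Each share lies near that of all symbols past the same filter. Among the higher genes, GPX2, ABCC3 and ABCG2 passed the filter only through the treated library. The median log2 change of all 104 genes was -0.15. Over the 68 genes of the lists headed as further NRF2 targets, 8 (11.8%) were higher and 3 (4.41%) lower, with a median of -0.18. These shares too lie near those of all symbols, 10.8% and 4.82%. The same GPX2, ABCC3 and ABCG2 are among these higher genes. These lists also hold neighbours in the same processes, such as TXNIP and TFRC. Whether NRF2 controls each listed gene was not tested.

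**Figure D4:**
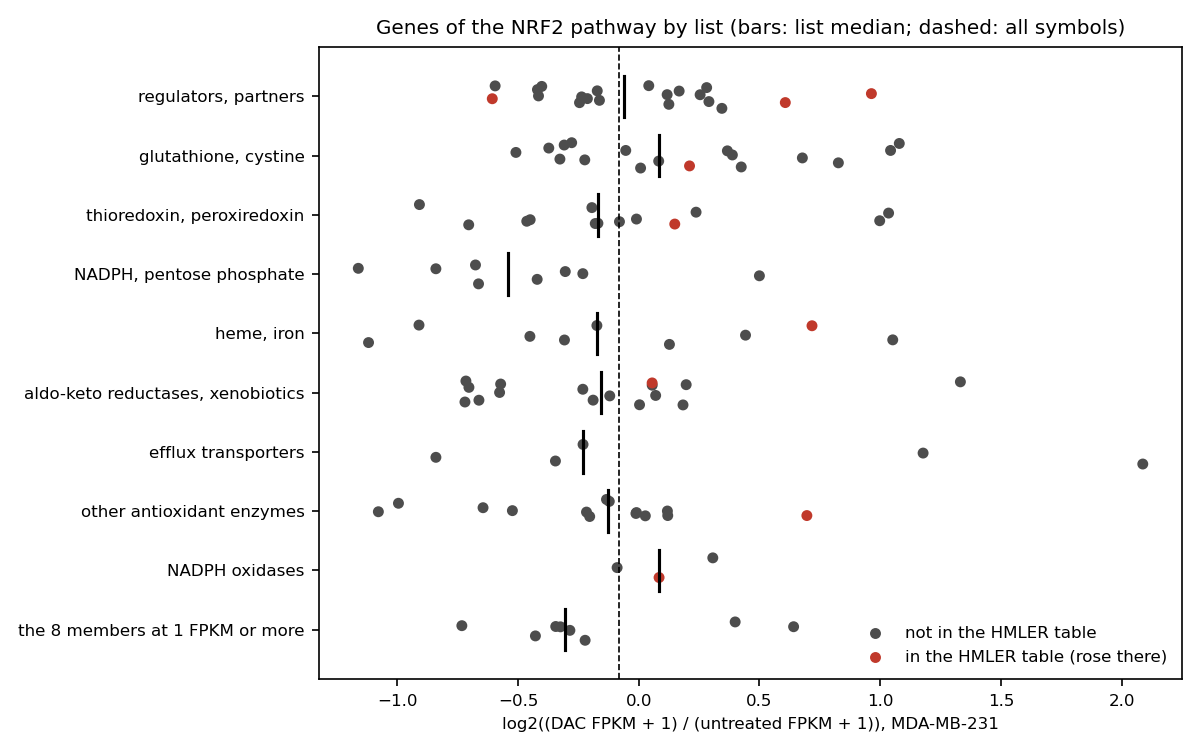
Log2 change after DAC in MDA-MB-231 (horizontal axis, 1 FPKM added to each value) of pathway genes at 1 FPKM or more, by list; red points are genes in the HMLER table, black bars list medians, the dashed line the median of all symbols. The NADPH and pentose phosphate list has the lowest median, -0.54, and the 8 genes have -0.30.

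Among 20 regulators and partners past the filter, 1 was higher and none was lower, where 10.8% and 4.82% of all symbols were. KEAP1, the repressor of NRF2, was 64.6 FPKM in the untreated and 66.5 FPKM in the treated library. CUL3, the scaffold of its ligase, was 18.9 and 13.9 FPKM, and BACH1, which competes with NRF2 at the same elements, was 8.26 and 6.86 FPKM. The small MAF genes code for the partners of NRF2. MAFK, the gene higher in both lines, was 7.78 FPKM (bounds 3.28 to 12.3) without and 16.1 FPKM (bounds 8.03 to 24.2) with DAC in MDA-MB-231, and 7.85 and 16.8 FPKM in HMLER. MAFF was 19.02 and 29.5 FPKM in MDA-MB-231, a ratio of 1.55, and 8.13 and 47.1 FPKM in HMLER. MAFG was 22.1 and 16.5 FPKM in MDA-MB-231 and was not in the HMLER table. The MAFK bounds overlapped.

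The list headed NADPH supply and the pentose phosphate pathway, not all of whose genes serve these, had 8 genes past the filter. They had a median ratio of 0.684, and 7 of them had a ratio under 1. Of all symbols past the filter, 56.9% had a ratio under 1, and the median ratio was 0.933. It was 0.872 for symbols at 10 FPKM or more, a level that these 8 genes reached. By median log2 change this list was the lowest, a rank known only after the values were seen. IDH1, cytosolic isocitrate dehydrogenase, was the gene past the threshold, with 30.1 FPKM (bounds 16.1 to 44.1) without and 12.9 FPKM (bounds 5.75 to 20.05) with DAC, a ratio of 0.429. Transketolase TKT was 310.8 and 173.1 FPKM, malic enzyme ME1 18.2 and 11.1 FPKM, and phosphogluconate dehydrogenase PGD 119.2 and 74.2 FPKM. MTHFD2, of mitochondrial folate metabolism, was the gene with a ratio above 1, at 1.42. With 8 genes and 1 library per condition this is a description.

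In the glutathione list, 2 of 17 genes were higher and none was lower, where 10.8% and 4.82% of all symbols past the filter were. GPX2, a glutathione peroxidase, was 0.159 and 1.39 FPKM, and GSTM4, a glutathione transferase with near-identical relatives that may share its reads, was 14.9 and 32.6 FPKM. In the thioredoxin list, 2 of 13 genes were higher and 1 was lower, beside the same shares of all symbols. Counts in lists this small are descriptions only. Peroxiredoxin PRDX5 was 105.0 and 216.2 FPKM, a ratio of 2.06. TXNIP, which inhibits thioredoxin rather than serving it, was 34.2 and 69.3 FPKM, a ratio of 2.03. The reductase TXNRD3 was 7.96 and 3.77 FPKM, a ratio of 0.474.

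In heme and iron metabolism, BLVRB was higher and TFRC lower among 9 genes, where 10.8% and 4.82% of all symbols were. Biliverdin reductase BLVRB was 48.1 FPKM without and 100.9 FPKM with DAC, a ratio of 2.10, whereas BLVRA, the other biliverdin reductase, was 30.2 and 15.6 FPKM, a ratio of 0.517. The transferrin receptor TFRC, which imports iron, was 117.1 and 53.3 FPKM, a ratio of 0.456. The ferritin chains FTH1 and FTL, which store it, had ratios of 0.730 and 0.887. Of 16 aldo-keto reductases and xenobiotic enzymes, EPHX1, an epoxide hydrolase, was higher, at 7.35 and 20.03 FPKM. Of 5 efflux transporters, 2 were higher, where 10.8% of all symbols were. Both, like GPX2 above, passed the filter only through the treated library, so the count supports nothing about the list. ABCC3 was 0.257 and 4.34 FPKM, and ABCG2 0.494 and 2.38 FPKM. ABCC3 was the 1 of the 104 genes whose bounds did not overlap, 0 to 0.444 FPKM without and 0.629 to 4.45 FPKM with DAC on its largest transcript. Bounds did not overlap for 1.44% of all symbols whose largest transcript reached 1 FPKM, so 1 of 104 is near the background. Among 14 other antioxidant enzymes, GPX8 (30.2 and 13.8 FPKM) and MSRA (11.4 and 5.20 FPKM) were lower, where 4.82% of all symbols were. None of the 3 NADPH oxidase genes past the filter, CYBA, NOXO1 and NOXA1, was past the threshold.

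In HMLER, 11 of the 140 symbols were listed. Of the 104 genes past the filter in MDA-MB-231, 9 (8.65%) were listed, near the 10.9% of all symbols past it. The 11 genes were the small MAF genes MAFF and MAFK, NFE2L3, SLC3A2, SESN1, ABCB6, CES1, OSGIN1, GPX3, CYBA and DUOX1. GPX3, the secreted glutathione peroxidase, had the largest ratio, with 0.794 FPKM in untreated and 24.9 FPKM in treated HMLER cells, 31.4-fold, against 26.7 and 43.9 FPKM in MDA-MB-231. CYBA, a subunit of NADPH oxidases, was 1.32 and 12.2 FPKM in HMLER and 166.9 and 176.9 FPKM in MDA-MB-231. SLC3A2, the heavy chain of the cystine antiporter, was 19.3 and 55.02 FPKM over its 2 listed transcripts, while its light chain SLC7A11 was not listed. OSGIN1, a target named for its induction by oxidative stress, was 2.78 and 8.46 FPKM in HMLER and 15.4 and 16.1 FPKM in MDA-MB-231. Both sets of values were normalized separately and are set side by side only.

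**Figure D5:**
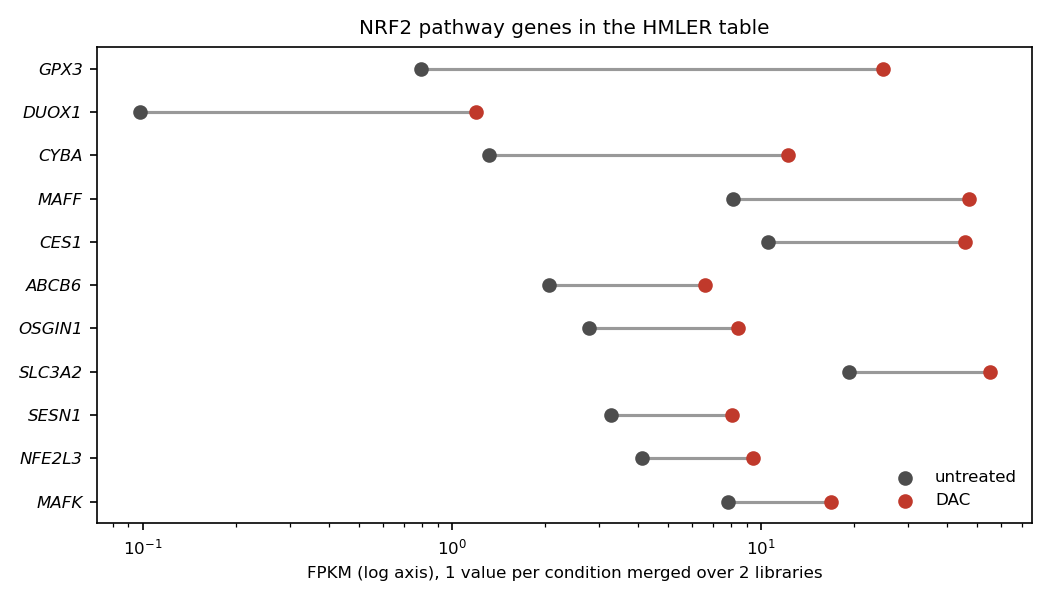
FPKM (log axis) in untreated (grey) and DAC-treated (red) HMLER cells of the 11 pathway genes in the HMLER table, summed over listed transcripts, 1 value per condition merged over 2 libraries. All 11 are higher after DAC because the table lists only such genes, and GPX3 spans the widest range, 0.794 to 24.9 FPKM.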

How the data were processed

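Polyadenylated RNA of 4 HMLER and 2 MDA-MB-231 libraries was sequenced. TopHat2 placed the reads on hg19, and the authors obtained the deposited FPKM of each RefSeq transcript from Cuffdiff. Versions are not given in the sources used here. The deposited HMLER table has 1 FPKM per condition, merged over 2 libraries and limited to transcripts higher after DAC. The authors' fold changes, p-values and q-values were not used. The methods' filter of 1 RPM (reads scaled to library size) was replaced by 1 FPKM.

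The members and lists were chosen with earlier results of these data known. All 10 members are named, with listed genes past 2-fold in either line, at most 5 a list by change, and KEAP1 and the AKR paralogs, and others of those lists named after their values were seen. Transcripts were summed per symbol. No test between conditions was run. Cuffdiff's scaling and its splitting of reads between transcripts can move values. What 1 read is worth was fitted to transcripts longer than 2000 bases that stand alone in symbol and locus (effective length: length minus 200 bases untreated, 205 bases DAC). Of 550 and 523 low values, 100% lay within 0.1 of a whole read. Reads are approximate for genes with several transcripts. The scripts' counting of genes past the threshold and the recovery of reads were tested on simulated data. The planned protein comparison was replaced by 50-base windows of GENCODE coding sequences (GRCh37). Promoters are from RefSeq (GRCh38.p14), placed on GRCh37 by exact match. Tools were matplotlib 3.10.9, pandas 2.3.3, numpy 2.4.6 and scipy 1.17.1 under Python 3.11.15. 1 gene of the lists is not reported here by name.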

Additional observations from a re-analysis of the deposited data

Results flagged for a closer look

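NFE2L3, a relative of NFE2L2, had a DAC/untreated ratio under 1 in MDA-MB-231, where it did not pass the 2-fold threshold, and was listed in HMLER. In MDA-MB-231 it was 37.3 FPKM (bounds 20.5 to 54.2) without and 24.2 FPKM (bounds 13.2 to 35.2) with DAC, a ratio of 0.647, and in the HMLER table it was 4.14 and 9.47 FPKM. The difference between the lines was not tested, as each has 1 value per condition, and the HMLER table holds only genes that were higher.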

How the results depend on the processing

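No paired analysis was possible because HMLER values are merged over libraries and each MDA-MB-231 group is a single library, which also kept replicates from being left out. The number of the 10 genes more than 2-fold higher in MDA-MB-231 (0) was 1 at a 1.5-fold threshold. The number lower (0) was 1 at a 1.5-fold threshold and 1 when every transcript stood on its own (NM_182742 of TXNRD1). Both stayed 0 with the largest transcript, no filter, 5 FPKM, 10 FPKM (chosen after the data were seen), a pseudocount in the ratio, division by the median ratio, and status OK. The numbers in HMLER and in both lines stayed 0. The median log2 change (-0.30) was -0.31 with a pseudocount of 0.1, -0.31 without one and -0.17 after division by the median ratio, which moves every gene up by its construction. NFE2L2 was -0.29 summed and -0.74 on its largest transcript. Over all symbols, 1350 were higher and 604 lower, with 5193 and 1080 without a filter, 465 and 453 at 5 FPKM, 863 and 410 with a pseudocount of 1, 2219 and 1554 with every transcript, and 2124 and 1944 at 1.5-fold. Higher genes made up 69.1% of these calls, 82.8% without a filter, 50.7% at 5 FPKM, and 77.3% after division by the median ratio. Bounds and reads limit AKR1C1 and AKR1B10 most.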
